A study of Mus musculus with 25 samples.

Results

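The growth hormone and IGF axis of the liver was followed through 10 genes: Ghr, Stat5a, Stat5b, Socs2, Cish, Igf1, Igfals, Igfbp1, Igfbp2 and Igfbp3. They were found by gene symbol in the probe annotation of the authors' deposited tables, where 16 of 45281 array probes carry one of these names. Of these probes 15, for 9 of the 10 genes, were detected on at least 4 of 25 arrays, against 11594 genes that passed this filter in the whole series. The only probe of Stat5b was detected on 0 of 25 arrays (log2 4.24 to 4.52), so no level of Stat5b can be given.

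The arrays (Illumina bead arrays, 1 per liver sample) came from mice of C57BL/6J x 129Sv background that had been injected with a mutant form of PIK3CA, the catalytic subunit of phosphoinositide 3-kinase, or with an empty vector. E545K and H1047R are activating cancer mutations of this kinase. The groups were PIK3CA E545K tumours at 5 months (n = 5), PIK3CA E545K preneoplastic livers at 3 months (n = 5), PIK3CA H1047R preneoplastic livers at 3 months (n = 4), 1 PIK3CA H1047R preneoplasia at 6 months, 1 PIK3CA H1047R tumour at 12 months, and empty-vector normal livers at 6 months (n = 5) and 3 months (n = 4). No control of 5 months was analysed here, so the E545K tumours were set against controls of both ages and against E545K livers of 3 months. These 3 comparisons share the tumour arrays and are not independent of each other. The labels do not give the promoter that drives the transgene, the share of liver cells that carry it, or whether each array is a separate animal, so the spread behind each p-value is that between arrays and may be partly technical.

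Growth hormone from the pituitary binds its receptor on hepatocytes, and the kinase JAK2 on that receptor activates STAT5A and STAT5B. These enter the nucleus and switch on Igf1, Igfals and the feedback inhibitors Socs2 and Cish. The liver is the main source of circulating IGF-1, which travels in a complex with IGFBP-3 and the acid-labile subunit. The male rodent liver sees growth hormone in pulses and the female liver almost without a break, and this difference sets many sex-biased liver genes.

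In E545K tumours the receptor gene Ghr fell about 2.38- to 2.92-fold, Igf1 about 2.36- to 3.25-fold and Igfals about 2.48- to 2.70-fold in all 3 comparisons, while the binding protein gene Igfbp3 rose about 3.79- to 4.52-fold. Igfbp1 rose and Stat5a and Igfbp2 fell against 3-month controls and 3-month E545K livers, and did not pass the test against 6-month controls. These are the values of each gene's brightest probe. Further probes of Ghr, Igf1 and Igfbp2 passed the test in fewer comparisons or in none, while the second Stat5a probe passed it against 6-month controls as well. Socs2 and Cish, the direct feedback targets, passed the test in none of the 3. At 3 months none of the 9 measured members passed the test with either mutation. The only tumour with H1047R, at 12 months, had the lowest Igf1, Igfals and Igfbp2 and the highest Igfbp3 of all 25 arrays.

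Against 3-month controls 2 members were higher and 5 lower of 9, where 40.4% of all 11594 genes were called. Against 6-month controls it was 1 higher and 3 lower, with 19.9% of all genes called, and against 3-month E545K livers 2 higher and 5 lower, with 40.8% called. A gene was called at an adjusted p under 0.05 in limma's moderated test (Benjamini-Hochberg over 11594 genes), on log2 values made with background correction and quantile normalization. The median log2 difference of the 9 members was -0.81, -0.36 and -0.80 in these 3 comparisons, against -0.03, -0.02 and -0.03 over all genes. Against these backgrounds a single called member carries little weight by itself, and the sizes and the separate arrays are given below.

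Promoter windows of RefSeq genes (GRCm38.p6, 250 bases before to 50 after the start) were found for 9 of the 10 members, in 15 windows, with none for Socs2. They were searched on both strands for TTCNNNGAA, the palindrome bound by STAT5, and for CAAAACA, the core of the insulin response element that FOXO factors bind. No window of a member holds both motifs. The STAT5 palindrome is found in 8.30% of all 32851 promoter windows (2726) and the insulin response core in 6.28% (2064). Of the members' windows only that of Cish and those of 2 of 3 Igfals starts hold the STAT5 palindrome, and only that of Igfbp1 holds the insulin response core. The stretches below run from 130 bases before to 20 after the start, 5′ to 3′, with the motif in capitals, and are shown because they hold the motifs of the hormone pathways whose target genes are described below. They lie at chr9:107296529-107296678, chr17:24878101-24878250 and chr11:7197657-7197806, all on the plus strand.
Cish: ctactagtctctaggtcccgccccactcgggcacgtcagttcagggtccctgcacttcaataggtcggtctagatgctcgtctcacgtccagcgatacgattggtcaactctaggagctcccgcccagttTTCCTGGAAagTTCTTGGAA
Igfals: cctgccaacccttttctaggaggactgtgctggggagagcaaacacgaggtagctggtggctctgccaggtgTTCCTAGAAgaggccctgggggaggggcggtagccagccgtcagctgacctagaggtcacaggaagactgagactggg
Igfbp1: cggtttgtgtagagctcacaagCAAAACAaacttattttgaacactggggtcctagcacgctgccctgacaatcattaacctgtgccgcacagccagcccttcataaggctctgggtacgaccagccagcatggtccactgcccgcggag
Cish holds 2 copies of the palindrome right behind its start, and the Igfals window has 1 copy with its first base at -58 from the start. A letter match is a description of these windows and no measured site.

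The 25 arrays had 14536 to 18391 detected probes and median raw signals of 87.6 to 117. Their hepatocyte marker genes (10 of 10 measured, Alb among them) averaged between 12.1 and 13.2 on the log2 scale on each array. The mean of 15 acute-phase genes was 11.46 to 11.60 in E545K tumours and 11.93 in the H1047R tumour of 12 months, against 9.93 to 10.67 in 6-month controls, and 3-month control replicates 1 and 2 were also high, with 11.38 and 11.12 against 9.81 and 9.91 in replicates 3 and 4. The mean of 12 skeletal muscle genes reached 9.96 in H1047R 3-month replicate 2 and 10.7 in 3-month control replicate 4, against 4.40 to 4.51 in E545K tumours and 4.39 to 4.64 in E545K 3-month livers. All 4 of the 3-month controls (4.96, 7.19, 7.24 and 10.7) lay above every E545K tumour, and 10 of the 12 muscle genes were lower in the tumours in that comparison. The falls of Ghr, Stat5a, Igf1 and Igfals and the rises of Igfbp1 and Igfbp3 against 3-month controls kept their calls without control replicate 4. That of Igfbp2 did not. Control replicates 2 and 3 still lay far above the tumours in muscle signal, so leaving out replicate 4 does not remove the muscle difference. The Igfbp2 call was also lost without control replicate 1, the lowest of the 4 in muscle signal, and without replicate 2. The part of muscle in the members' differences was not tested. The Y-linked gene Eif2s3y was detected on all 25 arrays (8.38 to 10.1), while the 4 probes of Xist, which female cells use, were detected on at most 1 array each; the labels give no sex. In the E545K tumours the mean of sinusoidal endothelial markers was 6.15 to 7.79, against 7.24 to 7.59 in 6-month controls. That of Kupffer cell markers was 6.93 to 9.28, against 6.46 to 7.997 in 6-month controls. Tumour replicate 1 gave the highest value of both, and the next highest Kupffer mean was 8.01 on replicate 2. The 9 measured Kupffer genes did not move together. Against 6-month controls 3 were called higher (C1qb 1.93, Cd68 1.72 and Csf1r 1.16) and 0 lower, where 19.9% of all genes were called. Clec4f (-0.77) and Timd4 (-0.39) stood lower and were not called. The part of these cell types and of the acute-phase signal in the members' differences was not tested. Where cells of several types share a sample, fewer cells of one type and less RNA per cell cannot be told apart.

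**Figure D1:**
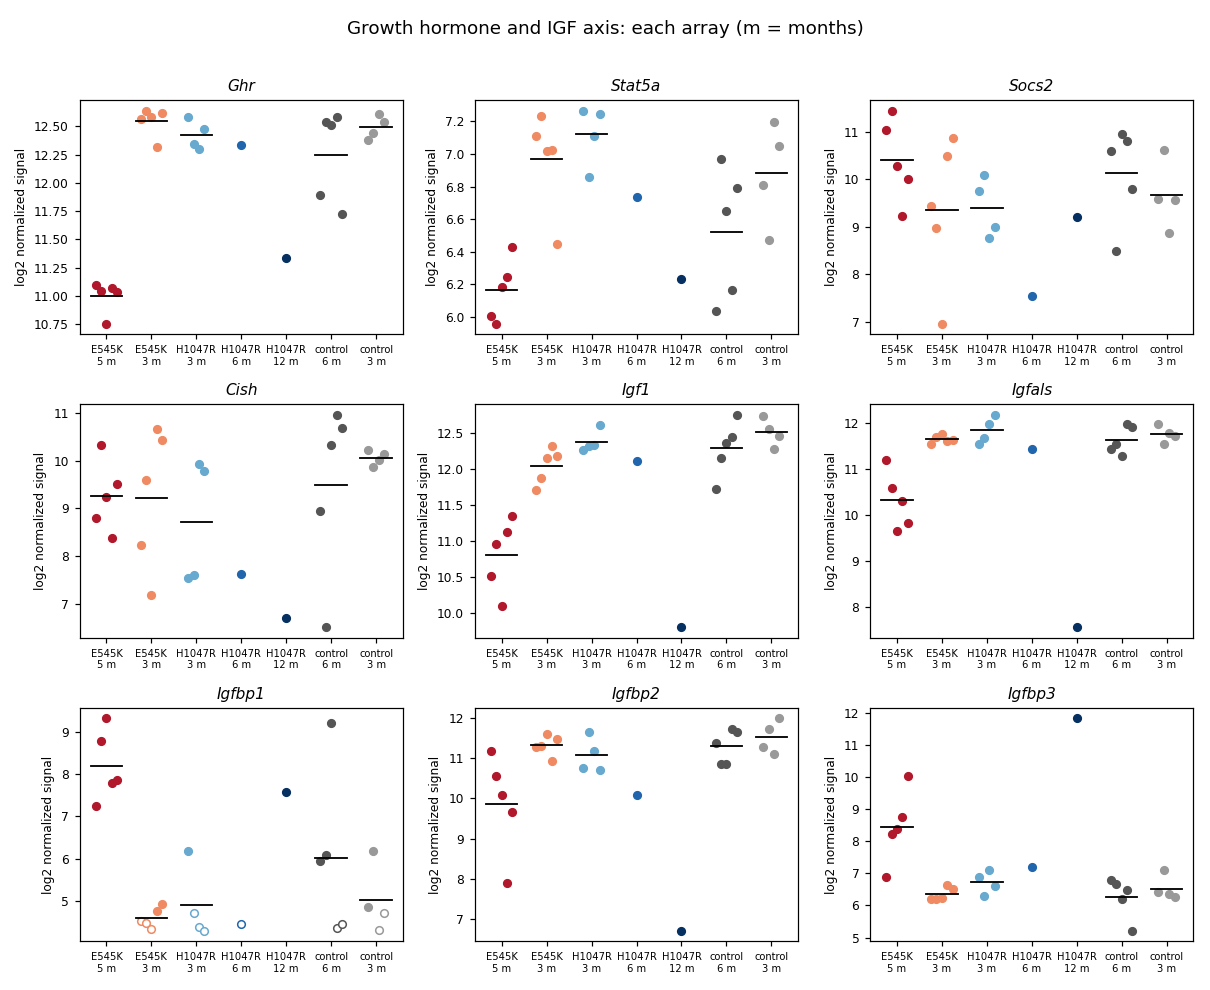
Log2 normalized signal (vertical axis, a separate range in each panel) of the 9 measured members on every array, by group. Filled points were detected (p under 0.05), open points were not, and the black line is the group mean where a group has several arrays. The E545K tumours sit below every other replicated group for Ghr, Igf1 and Igfals with no overlap, and the H1047R 12-month tumour lies lowest of all for Igf1, Igfals and Igfbp2.

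Ghr encodes the growth hormone receptor. Its log2 signal was 11.10, 11.04, 10.75, 11.07 and 11.03 in the E545K tumours, against 12.57, 12.64, 12.59, 12.32 and 12.62 in E545K livers of 3 months. In controls it was 11.89, 12.54, 12.51, 12.59 and 11.72 at 6 months and 12.38, 12.45, 12.61 and 12.54 at 3 months. Every tumour array lay below every array of these 3 groups, and 2 of the 6-month controls were lower than the other three. Ghr fell 2.82-fold (log2 SE 0.13) against 3-month controls (limma adjusted p = 1.60e-05), by 1.25 on the log2 scale (SE 0.20) against 6-month controls (adjusted p = 0.00114) and by 1.55 (SE 0.12) against 3-month E545K livers (adjusted p = 4.19e-06). These calls held in each of the 17 or 18 alternative analyses of each comparison. The H1047R livers had 12.58, 12.34, 12.30 and 12.48 at 3 months, 12.34 at 6 months and 11.33 in the 12-month tumour, which was the only array outside the E545K tumours below all controls. A second, dimmer probe, assigned to 3 Ghr transcripts, fell by 1.11 (SE 0.33) against 3-month E545K livers (adjusted p = 0.0209 over all detected probes) and was not called against controls (-0.79, adjusted p = 0.0559 at 3 months and -1.53, adjusted p = 0.0604 at 6 months).

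STAT5A and STAT5B are the transcription factors that carry the receptor's signal to the nucleus. Stat5a was dim, with 6.01, 5.96, 6.19, 6.25 and 6.43 in E545K tumours and 7.11, 7.23, 7.02, 7.03 and 6.45 in 3-month E545K livers. The 6-month controls had 6.04, 6.97, 6.65, 6.16 and 6.79 and the 3-month controls 6.81, 6.47, 7.19 and 7.05. The tumours lay below all 3-month livers, and overlapped the 6-month controls, of which replicates 1 and 4 were as low as the tumours. Stat5a fell by 0.72 (SE 0.17) against 3-month controls (limma adjusted p = 0.00732) and by 0.80 (SE 0.16) against 3-month E545K livers (adjusted p = 0.00285), and the difference from 6-month controls was -0.36 (adjusted p = 0.237). Without background correction the first of these was -0.37 (adjusted p = 0.0102). The second Stat5a probe read 5.31, 4.99, 5.23, 5.38 and 5.19 in the tumours, against 5.86, 5.93, 6.01, 5.50 and 5.80 in 6-month controls, with no overlap, and fell in all 3 comparisons (-0.60, adjusted p = 0.0157 against 6-month controls). The 2 probes thus gave different calls against 6-month controls. In H1047R livers the first probe read 7.26, 6.86, 7.11 and 7.25 at 3 months, 6.73 at 6 months and 6.23 in the tumour.

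SOCS2 and CIS, the product of Cish, bind the activated receptor complex and damp it, and their genes answer to STAT5 within hours of a growth hormone pulse. Cish read 8.79, 10.33, 9.25, 8.38 and 9.51 in E545K tumours, 8.24, 9.59, 7.18, 10.66 and 10.44 in 3-month E545K livers, and 7.54, 7.59, 9.94 and 9.78 in 3-month H1047R livers. The 6-month controls ran from 6.51 to 10.96 (8.95, 6.51, 10.33, 10.96 and 10.68), while the 3-month controls were tight at 10.22, 9.87, 10.02 and 10.14. The groups overlapped throughout, and the spread within most groups (SD 0.74 to 1.84, save 0.15 in 3-month controls) was as wide as the differences between them. The difference of the tumours was -0.81 (SE 0.32) from 3-month controls (adjusted p = 0.0657), -0.23 (SE 0.74) from 6-month controls (0.860) and 0.03 (SE 0.62) from 3-month E545K livers (0.977). Without E545K tumour replicate 2, the highest of its group, the difference from 3-month controls was -1.08 with an adjusted p of 0.00623.

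Socs2 read 11.03, 11.44, 10.29, 9.23 and 10 in E545K tumours and 9.45, 8.97, 6.96, 10.49 and 10.86 in 3-month E545K livers. The controls had 10.59, 8.49, 10.96, 10.80 and 9.79 at 6 months and 9.58, 10.62, 8.87 and 9.57 at 3 months. The tumours overlapped every replicated group, and no difference was called (0.74, SE 0.45, from 3-month controls, adjusted p = 0.211, 95% interval -0.24 to 1.72). The array lowest for Cish was also the lowest for Socs2 in E545K tumours (replicate 4), 3-month E545K livers (replicate 3) and 6-month controls (replicate 2), but not in 3-month H1047R livers or 3-month controls. Socs2 was 9.76, 10.09, 8.77 and 8.997 in 3-month H1047R livers, 7.54 in the 6-month preneoplasia and 9.22 in the 12-month tumour, while Cish was 7.62 and 6.69 on the latest 2 arrays. The receptor gene had an SD of 0.14 within the tumours, against 0.74 for Cish and 0.87 for Socs2.

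Igf1 encodes insulin-like growth factor 1, the hormone through which the liver passes on much of the growth hormone signal. It read 10.51, 10.96, 10.10, 11.13 and 11.34 in E545K tumours and 11.70, 11.88, 12.15, 12.32 and 12.19 in E545K livers of 3 months. The controls had 11.72, 12.16, 12.37, 12.45 and 12.76 at 6 months and 12.74, 12.56, 12.28 and 12.46 at 3 months. All 5 tumours lay below all of these livers. Igf1 fell by 1.70 (SE 0.24) against 3-month controls (limma adjusted p = 3.73e-04), by 1.48 (SE 0.26) against 6-month controls (0.00223) and by 1.24 (SE 0.23) against 3-month E545K livers (0.00151), and kept each call in every alternative analysis. H1047R livers had 12.26, 12.31, 12.34 and 12.61 at 3 months and 12.12 at 6 months, within the control range, and 9.80 in the 12-month tumour. Of 2 further Igf1 probes the brighter fell against 3-month controls (-0.94, adjusted p = 0.0261) and 3-month E545K livers (-1.19, adjusted p = 0.00333), with -0.57 from 6-month controls (0.162). The dimmer, assigned to 3 of the 5 transcripts of the main probe, was called in none of the 3 (-0.47, -0.83 and -0.08, adjusted p = 0.213, 0.243 and 0.904). The test was thus passed by 2 of 3 Igf1 probes against 3-month livers and by 1 against 6-month controls.

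Igfals encodes the acid-labile subunit, the liver protein that holds IGF-1 and IGFBP-3 in a long-lived complex in blood. It read 11.19, 10.60, 9.64, 10.31 and 9.84 in E545K tumours and 11.55, 11.70, 11.75, 11.61 and 11.63 in 3-month E545K livers, a group with an SD of 0.08. The controls had 11.43, 11.54, 11.28, 11.98 and 11.91 at 6 months and 11.98, 11.53, 11.77 and 11.72 at 3 months. The tumours lay below all of them with no overlap, replicate 1 only just so. Igfals fell by 1.43 (SE 0.28), 1.31 (SE 0.28) and 1.33 (SE 0.25) against 3-month controls, 6-month controls and 3-month E545K livers (limma adjusted p = 0.00235, 0.00689 and 0.00170). In H1047R livers it was 11.54, 11.66, 11.97 and 12.18 at 3 months, 11.44 at 6 months and 7.57 in the 12-month tumour, more than 2 log2 units below the lowest E545K tumour.

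Igfbp3 encodes the main carrier of IGF-1 in blood, made in the liver chiefly by cells other than hepatocytes. It read 6.88, 8.22, 8.37, 8.74 and 10.02 in E545K tumours, against 6.19, 6.19, 6.24, 6.63 and 6.52 in 3-month E545K livers. The controls had 6.80, 6.67, 6.19, 6.48 and 5.21 at 6 months and 6.41, 7.09, 6.35 and 6.25 at 3 months. Tumour replicate 1 was no higher than the highest 3-month control, and the other four lay above all controls. Igfbp3 rose by 1.92 (SE 0.49), 2.18 (SE 0.49) and 2.09 (SE 0.43) against 3-month controls, 6-month controls and 3-month E545K livers (limma adjusted p = 0.00926, 0.00936 and 0.00299). Without background correction the difference from 6-month controls was 1.43 (adjusted p = 0.0257). A second probe was detected on 4 of 5 E545K tumours, again not on replicate 1, and on 0 of 5 E545K livers of 3 months and 0 of 9 controls. It was also detected on 2 of 4 H1047R livers of 3 months and on the 12-month H1047R tumour. Without the E545K tumours it would not have passed the filter of 4 arrays, so its calls are no independent support. It was at least 3.26-, 3.13- and 3.23-fold higher in the tumours (adjusted p = 0.00983, 0.0133 and 0.00579), the mean of the tumours being set against the lowest signal detected on each array of the other group where that is above the probe's own. In H1047R livers Igfbp3 was 6.90, 6.29, 7.10 and 6.59 at 3 months, 7.18 at 6 months and 11.82 in the 12-month tumour, the highest of all arrays. Markers of other cell types were also measured. The biliary mean (5 of 8 genes measured, with Krt19, Epcam and Cftr not) was 6.62 to 7.65 in E545K tumours and 8.19 in the H1047R tumour, against 5.86 to 6.75 in 6-month and 6.43 to 6.75 in 3-month controls. The stellate mean was 6.95 to 7.75 in E545K tumours and 8.24 in the H1047R tumour. Controls had 6.56 to 7.36 at 6 months and 7.20 to 7.82 at 3 months. Its 9 measured genes did not move together. Against 3-month controls 3 were called lower (Lrat -1.42, Des -1.29 and Dcn -0.98) and 0 higher. Against 6-month controls 3 were higher (Acta2 1.86, Col1a1 1.44 and Col3a1 1.02) and 0 lower. Of 10 sinusoidal endothelial genes 2 and 1 were lower in these comparisons and 0 higher. Of all genes 40.4% and 19.9% were called. The part of these cell types in the Igfbp3 signal was not tested.

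Igfbp1 encodes a short-lived IGF-binding protein of hepatocytes that insulin represses through FOXO factors, and its probe was detected on 14 of 25 arrays. The E545K tumours read 7.24, 8.79, 9.31, 7.78 and 7.85, all detected, against 4.52, 4.47, 4.34, 4.77 and 4.92 in 3-month E545K livers, where only replicates 4 and 5 were detected. The 6-month controls scattered widely (5.94, 6.07, 9.20, 4.36 and 4.44, the last 2 not detected) and the 3-month controls had 4.85, 6.18, 4.32 and 4.71, the last 2 not detected. The tumours lay above all arrays of these groups except 6-month control replicate 3, which was as high as the highest tumours. Igfbp1 rose by 3.18 (SE 0.45) against 3-month controls (limma adjusted p = 4.14e-04) and by 3.59 (SE 0.34) against 3-month E545K livers (adjusted p = 1.49e-05). Against 6-month controls the difference was 2.19 (SE 0.79, adjusted p = 0.0723), and 2.99 (adjusted p = 0.00231) without control replicate 3. Without background correction the rise against 3-month controls was 1.67 (adjusted p = 0.00331) and that against 3-month E545K livers 1.81 (adjusted p = 8.18e-04). H1047R livers had 6.18, 4.72, 4.38 and 4.29 at 3 months and 4.46 at 6 months, with a single one of these 5 arrays detected, and 7.57 in the 12-month tumour, which was detected.

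Igfbp2 encodes an IGF-binding protein that hepatocytes secrete in large amounts. It read 11.17, 10.55, 10.08, 7.88 and 9.65 in E545K tumours and 11.28, 11.30, 11.61, 10.94 and 11.48 in 3-month E545K livers. The controls had 11.37, 10.86, 10.86, 11.73 and 11.66 at 6 months and 11.28, 11.72, 11.10 and 11.99 at 3 months. Tumour replicate 1 lay inside the control range and replicate 4 far below the rest. Igfbp2 fell by 1.66 (SE 0.53) against 3-month controls (limma adjusted p = 0.0286) and by 1.46 (SE 0.48) against 3-month E545K livers (0.0292), with -1.43 (SE 0.50) from 6-month controls (0.0623). Without tumour replicate 4 the difference from 3-month E545K livers was -0.96 (adjusted p = 0.0211). Both calls were lost in several alternatives: that against 3-month controls was kept in 10 of 18 and that against 3-month E545K livers in 11 of 17. The second Igfbp2 probe was called in no comparison (-0.18, -0.61 and 0.37 against 3-month controls, 6-month controls and 3-month E545K livers). In H1047R livers Igfbp2 was 10.75, 11.65, 11.19 and 10.71 at 3 months, 10.08 at 6 months and 6.70 in the 12-month tumour.

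**Figure D2:**
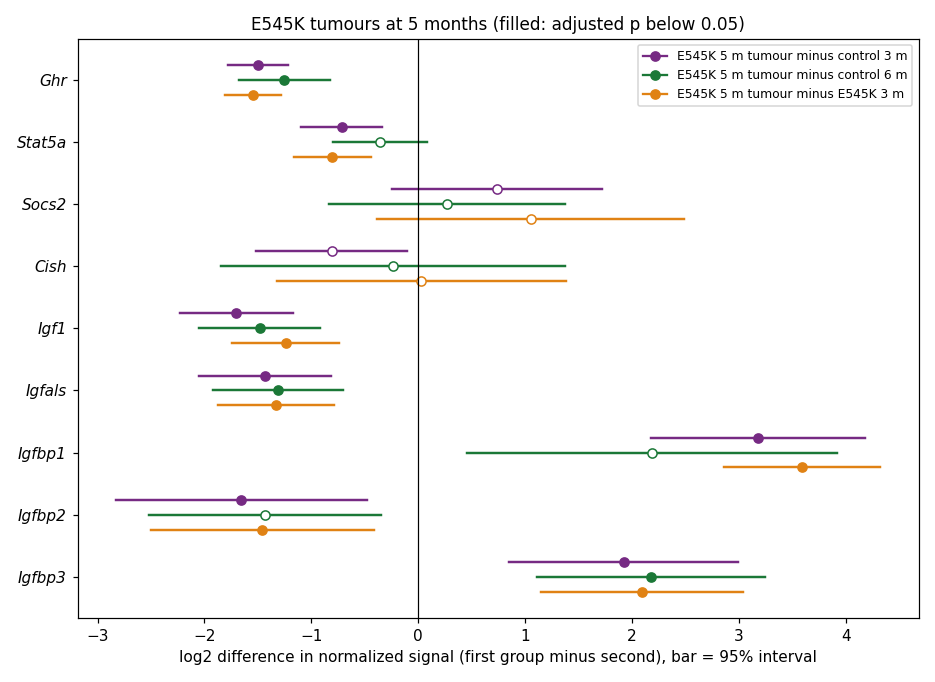
Log2 difference between E545K tumours and 3-month controls (purple), 6-month controls (green) and 3-month E545K livers (orange) for each measured member, with its 95% interval. Filled points passed the test (adjusted p under 0.05). Ghr, Igf1, Igfals and Igfbp3 are filled in all 3 comparisons, and Socs2 and Cish in none.

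Several genes have more than 1 detected probe, and these did not always give the same call. Among 6 further probes, those of Stat5a and Igfbp3 passed the test in the same direction as the main probe in all 3 comparisons, 1 of Ghr in 1 and 1 of Igf1 in 2, while the dimmest Igf1 probe and the second Igfbp2 probe passed in none. The second Igfbp3 probe passed the detection filter only through the E545K tumours. The second Ghr, dimmest Igf1 and second Igfbp2 probes were all lowest in 6-month controls on replicate 1, with 5.85, 7.13 and 5.86. In 3-month E545K livers all 3 were highest on replicate 4, with 8.37, 9.25 and 9.07.

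**Figure D3:**
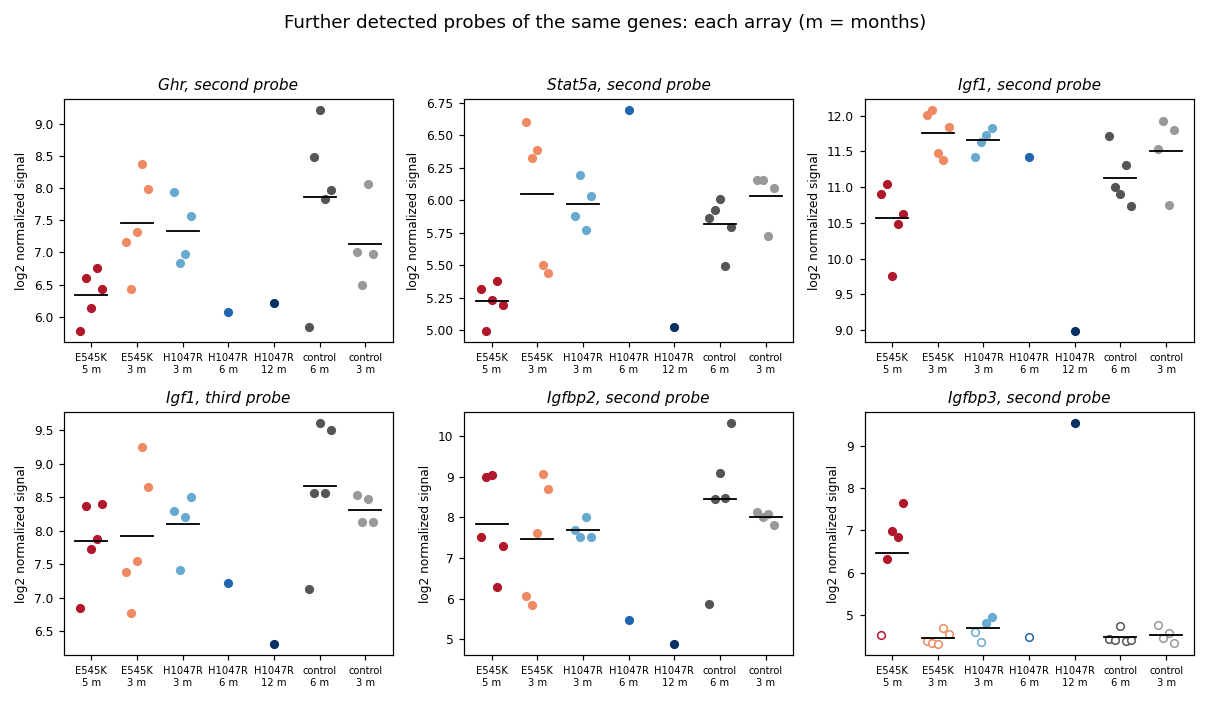
Log2 normalized signal (vertical axis, a separate range in each panel) of the 6 further detected probes on every array, by group, with open points where the probe was not detected and lines at group means. The second probes of Stat5a and Igfbp3 lie below and above the controls on the E545K tumours, except tumour replicate 1 for Igfbp3, and those of Igfbp2 overlap them.

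The authors' deposited table for the E545K tumours is named as a comparison with 3-month controls. Over 45281 probes its log2 differences correlate across probes at 0.886 with tumours minus 3-month controls and at 0.9998 with tumours minus 6-month controls as normalized here, while the other 3 deposited tables correlate with the difference from 3-month controls at 0.9996 to 0.9997. Its values are therefore set beside the 6-month comparison. In the authors' deposited table Ghr stood at -1.24 (adjusted p = 2.59e-06), Igf1 at -1.47 (4.22e-05), Igfals at -1.30 (3.19e-04) and Igfbp3 at 2.18 (7.83e-04). It also lists Igfbp1 at 2.21 (adjusted p = 0.0465) and Igfbp2 at -1.42 (0.0291), both past the same threshold, where the fit here gave 0.0723 and 0.0623.

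Whether the difference between the tumours and 3-month E545K livers exceeded the difference between control ages was tested as an interaction. Of 9 members 1 was higher and 3 lower, where 12.6% of all genes were called. Ghr differed by -1.30 (SE 0.23, limma adjusted p = 8.87e-04), Igfals by -1.21 (SE 0.33, 0.0192), Igf1 by -1.02 (SE 0.32, 0.0421) and Igfbp3 by 2.35 (SE 0.58, 0.0114). With 3-month controls limited to replicates 3 and 4, which had low acute-phase signal, Ghr alone kept its call. Their muscle means were 7.24 and 10.7, the latter the highest of all 25 arrays. This subset also left fewer control arrays, and fewer of all genes were called with it. The part of the acute-phase signal in the lost calls was not tested. The call of Igf1 was kept in 12 of 28 alternatives. Between the control ages themselves 0 of 9 members were called, where 0.0173% of all genes were (limma; 1235 genes at an unadjusted p under 0.05, and none of the 9 members among them). The differences of 6-month from 3-month controls ran from -0.58 for Cish to 0.99 for Igfbp1.

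At 3 months both mutations were set against controls of the same age to see whether the axis had moved before tumours formed. In limma 0 of 9 members were called in E545K livers, where 0.00863% of all genes were (536 genes at an unadjusted p under 0.05), and 0 in H1047R livers, where 0% were (812 genes). In limma, Igf1 in E545K livers showed a difference of -0.46 (SE 0.16, 95% interval -0.82 to -0.11, unadjusted p = 0.0157 and adjusted p = 0.99993), and Cish showed -1.35 (SE 0.52, 95% interval -2.50 to -0.19, unadjusted p = 0.0262 and adjusted p = 0.692) in H1047R livers. These were the only members at an unadjusted p under 0.05 in the 2 comparisons. The second brightest Igf1 probe went the other way in E545K livers, with a difference of 0.25 (SE 0.25) from controls. For Ghr the intervals were narrow, -0.22 to 0.32 in E545K livers and -0.35 to 0.21 in H1047R livers, so a fall of the size seen in the tumours lies outside both. For Socs2 they were wide, -1.80 to 1.18 in E545K livers and -1.10 to 0.58 in H1047R livers. Between E545K and H1047R livers of 3 months 0 of 9 members were called as well, where 0% of all genes were (713 genes at an unadjusted p under 0.05), and the differences ran from -0.37 for Igfbp3 to 0.51 for Cish.

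**Figure D4:**
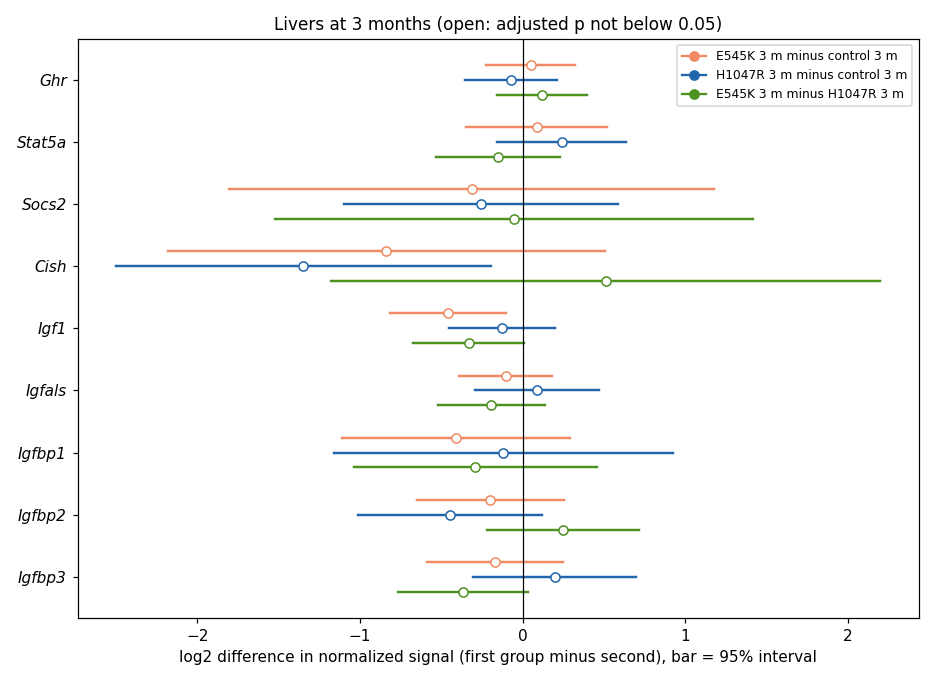
Log2 difference with its 95% interval for each measured member between E545K and control livers (orange), H1047R and control livers (blue), and E545K and H1047R livers (green), all at 3 months. Every point is open, as no member passed the test, with the narrowest intervals for Ghr and wide ones for Cish and Socs2.

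The 2 late H1047R arrays differ in tissue and age. With both set against 6-month controls 0 of 9 members were called in limma, where 0.0431% of all genes were (1037 genes at an unadjusted p under 0.05). Differences ran from -2.90 (SE 0.76) for Igfbp2, -2.33 (SE 1.10) for Cish and -2.13 (SE 0.83) for Igfals to 3.23 (SE 1.03) for Igfbp3. Socs2 stood at -1.75 (SE 0.71) and Igf1 at -1.33 (SE 0.56). The members at an unadjusted p under 0.05 were Igfbp2, Igfbp3, Igfals, Socs2 and Igf1. The mean differences of Stat5a (-0.04, SE 0.33) and Igfbp1 (0.01, SE 1.31) were close to 0, and that of Ghr was -0.41 (SE 0.38). For Ghr and Igfbp1 the means joined unlike arrays. Ghr read 12.34 in the 6-month preneoplasia and 11.33 in the 12-month tumour, and Igfbp1 4.46 and 7.57. Igfbp2 and Igfbp3 did not overlap the 6-month controls. With the 6-month preneoplasia left out, the 12-month tumour alone differed by -2.49 for Igf1, -4.06 for Igfals, -4.59 for Igfbp2 and 5.55 for Igfbp3. Any test of this lone tumour array assumes that it varies like the controls. No 12-month control was analysed here, so tumour state and age cannot be told apart in these differences.

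The wider pathway was read through lists. Of 13 measured genes of growth hormone receptor signalling beyond the members, 3 were higher and 2 lower in the tumours against 3-month controls, 0 and 2 against 6-month controls, and 3 and 2 against 3-month E545K livers. These counts are near or below the shares of all genes called (40.4%, 19.9% and 40.8%) and show nothing particular to the list. Its median differences were -0.17, -0.00 and -0.07. Sh2b1, an adaptor that enhances JAK2, fell in all 3 comparisons (-0.79, -0.66 and -0.70, limma adjusted p = 9.82e-04, 0.0102 and 0.00153). Bcl6, a repressor that opposes STAT5 at many liver genes, fell as well (-1.61, -2.18 and -1.72, adjusted p = 0.0333, 0.0188 and 0.0269). Against 3-month controls Jak2 itself rose by 1.12 (adjusted p = 0.00364) and the phosphatase gene Ptpn11 by 0.59 (0.0168). Against 6-month controls Jak2 stood at 0.65 (0.14) and was not called.

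Of 18 measured genes in a list of IGF ligands, receptors, carriers and proteases, 5 were higher and 2 lower against 3-month controls, 2 and 1 against 6-month controls and 5 and 1 against 3-month E545K livers. These counts too are near or below the shares of all genes called in the same comparisons. The list's median differences were 0.27, 0.28 and 0.13. Stc1, whose product blocks the proteases that free IGF from its carriers, was detected on all 5 tumours and on none of the 9 controls and 5 E545K livers of 3 months, at least 3.59-, 3.44- and 3.55-fold higher in the tumours (limma adjusted p = 0.00285, 0.00347 and 0.00163). Among these groups only the tumours counted towards the detection filter. The place of Stc1 among the tested genes may therefore depend on the arrays where it is high. Igfbp7, a low-affinity IGF binder of endothelial and stromal cells, rose by 0.79, 0.98 and 0.89 (adjusted p = 0.0223, 0.0150 and 0.0225). Igfbp5 fell by 1.96 against 3-month controls (0.00153) and 1.82 against 3-month E545K livers (0.00321), and Irs2, an insulin receptor substrate, fell 3.04-fold against 3-month controls (0.00582) and by 1.26 on the log2 scale against 6-month controls (0.0165). The remaining genes higher against 3-month controls were Igf2, the fetal IGF, named with its value known (2.94, adjusted p = 0.0359), Igf2bp2, which binds its mRNA (1.68, 0.0155), and Grb10, an adaptor that restrains the insulin and IGF receptors (1.07, 0.0176).

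Genes that the male or female pattern of growth hormone sets in rodent liver were read as well, from lists chosen with earlier results of these data known. Of 11 measured male-pattern genes 10 were lower and 1 higher in the E545K tumours in each of the 3 comparisons, with medians of -2.61, -2.43 and -2.50. In these comparisons 40.4%, 19.9% and 40.8% of all genes were called. As the lists were so chosen, the counts are no independent test of the pattern. Hsd3b5, a male-specific steroid dehydrogenase, had a mean of 4.63 ± 0.27 in the tumours (SD, n = 5), where 1 of 5 arrays detected it, against 11.9 ± 0.33 in 6-month controls (n = 5) and 12.1 ± 0.32 in 3-month controls (n = 4). As the other tumour values lay below detection, its fitted differences of -7.45, -7.28 and -7.23 depend on the background (limma adjusted p = 3.51e-09, 1.41e-09 and 1.52e-10). Elovl3, a fatty acid elongase, was detected on none of the tumours and was at least 38.4-, 17.7- and 21.7-fold lower (adjusted p = 4.57e-08, 1.80e-05 and 1.66e-09). Cyp4a12b fell by 5.09, 4.30 and 4.67 and Cyp2d9 by 2.43, 2.06 and 2.50. The exception, chosen after its values were seen, was Serpina12, a secreted serpin, which rose by 1.16, 1.47 and 0.92 (adjusted p = 0.0241, 0.00722 and 0.00737).

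Of 8 measured female-pattern genes 6, 4 and 7 were higher in the tumours and 0 lower in the same 3 comparisons, with medians of 2.26, 2.05 and 2.25. The shares of all genes called were 40.4%, 19.9% and 40.8%. Some of these female-pattern genes passed the detection filter only through the E545K tumour arrays. Cyp2b9, a female-pattern cytochrome P450, had a mean of 10.1 ± 0.52 in the tumours, detected on all 5, against 5.30 ± 1.04 in 3-month E545K livers, 4.61 ± 0.37 in 6-month controls and 4.45 ± 0.19 in 3-month controls, where it was detected on 3 of 5, 1 of 5 and 0 of 4 arrays. Cyp2a4, a female-biased steroid hydroxylase, rose by 5.39, 5.03 and 3.81 (limma adjusted p = 1.68e-06, 3.33e-06 and 1.78e-05), and Abcd2, a peroxisomal fatty acid transporter, by 1.94, 2.08 and 1.95 (7.09e-04, 2.36e-04 and 2.55e-04). The H1047R preneoplasia of 6 months, whose Ghr, Igf1 and Igfals lay in the range of the 6-month controls while its Socs2 and Igfbp2 lay below and its Igfbp3 above it, read 6.38 for Hsd3b5 and 10.2 for Cyp2b9, and the 12-month tumour 5.67 and 9.87. Both genes were called with these 2 arrays together (-5.89 and 5.45 against 6-month controls, adjusted p = 3.67e-04 for each), among 5 genes in all. At 3 months 0 of 11 male-pattern and 0 of 8 female-pattern genes were called with either mutation in limma. Of all genes 0.00863% were called in E545K livers and 0% in H1047R livers against controls of that age. Cyp2a4 nevertheless read 6.28 to 8.02 in the 5 E545K livers of 3 months, above all H1047R livers (5.58 to 6.07) and all controls (5.13 to 6.19) of that age. Its difference in E545K livers was 1.58 (SE 0.36) from controls (limma unadjusted p = 9.77e-04, adjusted p = 0.596) and 1.48 (SE 0.32) from H1047R livers (unadjusted p = 8.18e-04, adjusted p = 0.671). Single E545K livers of 3 months read up to 7.03 for Cyp2b9.

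**Figure D5:**
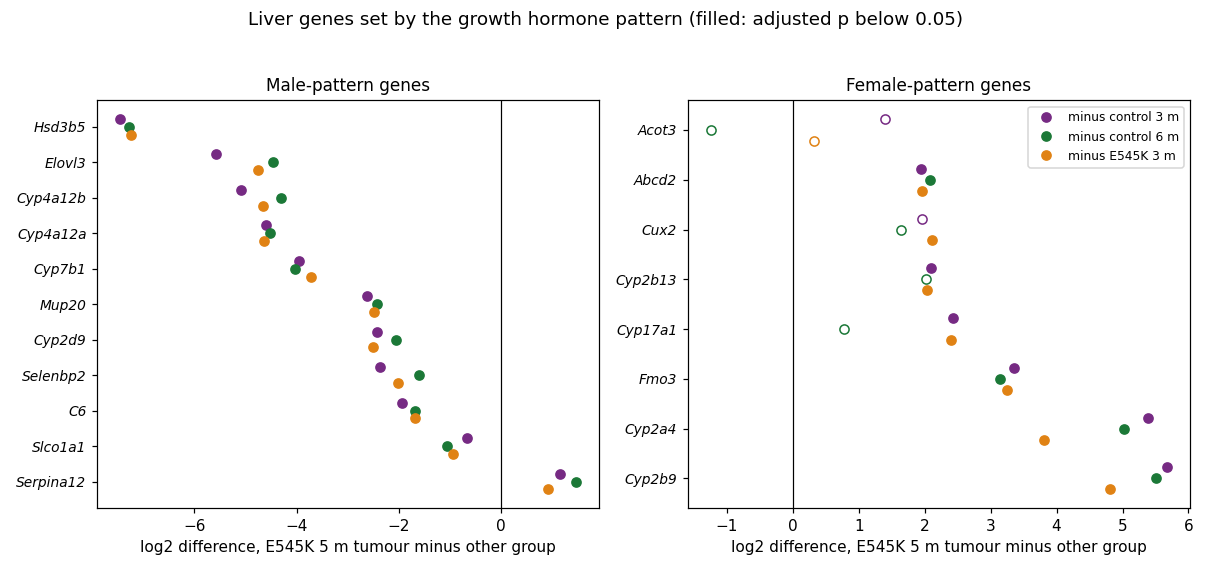
Log2 difference of E545K tumours from 3-month controls (purple), 6-month controls (green) and 3-month E545K livers (orange) for measured male-pattern (left) and female-pattern (right) liver genes. Filled points passed the test. Every male-pattern gene except Serpina12 lies left of 0, and the female-pattern genes lie right of 0 except Acot3 against 6-month controls.

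The genes whose means over the 5 replicated groups were most like those of a member were found by the mean absolute difference of centred log2 group means. For Ghr these were Nrp1, Cpt2 and Gcdh (0.03 each, against a median of 0.46 over all genes), for Stat5a Pou5f2, Iqgap2 and Nkd1 (0.03), for Igf1 Dleu2, Hyal1 and Tmem243 (0.07 to 0.09), and for Igfals Acox3, Clec4g and Nox4 (0.03 to 0.05). For Igfbp3 they were Tpm1, Icam1 and Ano10 (0.05 to 0.06), for Igfbp1 Plscr1, Kng2 and Mt1 (0.11 to 0.20), and for Igfbp2 Otc, Sytl1 and Ogfrl1 (0.02 to 0.06). Socs2 was closest to Orai3, Asnsd1 and Rnasek (0.05 to 0.07) and Cish to Rgs4, Abhd17c and Foxq1 (0.14 to 0.15). With 5 group means per gene and 11594 genes to choose from, close matches are found for most patterns.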

How the data were processed

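Per the labels' protocols, liver RNA was turned into biotin-labelled cRNA and hybridised to Illumina arrays. The authors deposited, per the file headers, an unnormalized intensity and a detection p-value per probe and array, a normalized intensity table, and limma tables with log2 fold changes and adjusted p-values. No label or header says how the normalized table was made. Here the unnormalized intensities of 45281 probes were background-corrected, quantile-normalized and log2-transformed with neqc (limma 3.58.1, R 4.3.3, offset 16). The 20349 probes detected (p under 0.05) on at least 4 of 25 arrays were kept. Each of 11594 genes was represented by its brightest kept probe on average. Each comparison was fitted with lmFit and eBayes on its own groups, with no replicate block, and p-values were adjusted by Benjamini-Hochberg over all genes. Further probes of the members were tested among all kept probes.

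Samples sharing a replicate number did not deviate together throughout (correlations of deviations -0.31 to 0.46), so the numbers were not used as pairs. Named genes were all 10 members, up to 4 called genes of smallest p per list and comparison, and the 3 genes most like each member. The members and lists were chosen with earlier results of these data known. The scripts were tested on simulated data. The number of arrays limits the precision. The authors' table for the E545K tumours was matched to the 6-month controls by its values, whatever its name. The values of 1 gene that is counted in a list are not reported here.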

Additional observations from a re-analysis of the deposited data

Results flagged for a closer look

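Among 45 groups of 4 or 5 arrays, 3 held an array far from the others, and chance flags about 1 in 20 groups. Ghr was 12.3 on E545K 3-month replicate 4, against 12.57 to 12.64 on the other arrays of that group. Ghr was 10.8 on E545K tumour replicate 3, against 11.03 to 11.10 on the other tumours. Stat5a was 6.45 on E545K 3-month replicate 5, against 7.02 to 7.23 on the others.

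The difference of E545K tumours from 3-month E545K livers, less that of 6-month from 3-month controls, passed limma's interaction test for 4 members. It was -1.30 for Ghr (adjusted p = 8.87e-04), -1.02 for Igf1 (0.0421), -1.21 for Igfals (0.0192) and 2.35 for Igfbp3 (0.0114). The tumours were taken at 5 months and no control of that age was used, so the control difference spans 3 to 6 months.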

How the results depend on the processing

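Of 1467 values of members under the alternatives, 1420 kept their side of the threshold, 32 lost and 15 gained a call, and 0 called values reversed. Of those that kept their side, 50 changed sign, all called in neither analysis. The members called numbered 6 to 8 against 3-month controls, 4 to 6 against 6-month controls and 6 to 7 against 3-month E545K livers. For the late H1047R arrays they numbered 4, not 0, with all 25 arrays in a single fit, and 0 to 4 when 1 array was left out, with 4 without the 6-month preneoplasia. The interaction gave 1 member, Ghr, with 3-month controls limited to replicates 3 and 4. With the replicate number as a block, 6 members were called against 3-month controls, with Igfbp2 lost (-1.60, adjusted p = 0.0686), and 5 against 6-month controls, with Igfbp1 gained (adjusted p = 0.0122). Leaving out the 2 arrays of highest muscle signal, chosen after seeing the data, gave 6 members against 3-month controls and 3 in the interaction, where Igf1 was lost. Over all genes, calls against 3-month controls numbered 2810 with 3-month controls 3 and 4, against 4689. With every detected probe tested, 8093 probes were called against 3-month controls and 7917 against 3-month E545K livers. These count probes, of which 20349 were kept, and cannot be set directly beside the 4689 and 4725 calls among 11594 genes. The interaction called 765 genes with 3-month controls 3 and 4, against 1456, and the late H1047R comparison 594 in the single fit and 839 without the 6-month preneoplasia, against 5. Apart from the unit counted, the cause of these changes was not tested. Dim probes such as those of Stat5a and Igfbp1 have the least certain fold changes.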

Other observations

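The dimmest probes of Ghr, Igf1 and Igfbp2 were highest and lowest on the same arrays in 2 groups, while on replicate 4 of the 3-month E545K livers the brighter probes of Ghr and Igfbp2 were the lowest of that group. In 3-month E545K livers they read 8.37, 9.25 and 9.07 on replicate 4 and 7.99, 8.65 and 8.70 on replicate 5, the highest values of that group for each probe. In 6-month controls they read 5.85, 7.13 and 5.86 on replicate 1, the lowest of that group for each. The cause was not tested.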
